A study of Homo sapiens with 2 samples.

Results

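Some stretches of RNA cannot be traced to a single gene, because a duplicated copy carries the same bases or because neighbouring genes share exons. The results below concern the probe sets that carry such an ambiguity in their annotation, namely those listed with 2 or more gene symbols. There were 1055 of them among the 45200 probe sets of the deposited table, against 42575 with 1 symbol and 1570 with none. The rule by which the probe sets of the table were chosen is not known, and those with 1 symbol covered 2792 genes. Shares, medians and absent genes below refer to this table. Written without regard to order, the symbols of the 1055 formed 183 different sets, called groups here, with 311 symbols in all. The cells were HepG2, an established human hepatoma line grown on collagen. The knockdown culture was transfected with a locked nucleic acid (LNA) against the noncoding transcript TUC338, and the control culture was transfected with a control LNA, so both had received an LNA. Each condition was measured on 1 whole-transcript array. Every difference is therefore that of 2 arrays, with no replicate check and no test. The SD given with a mean is the spread over probe sets of the same 2 arrays.

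A gene can be duplicated with its introns, which leaves paralogs side by side or scattered over a chromosome, or copied from its mRNA into another chromosome, which leaves an intronless retrocopy. Genes can also share exons at 1 locus. At the UGT1A locus separate first exons are joined to a common set of later exons, and in a readthrough transcript a gene runs on into its neighbour. In liver cells such families include enzymes of conjugation, the step in which the glucuronosyltransferases of the UGT1A and UGT2B families add glucuronic acid and the sulfotransferases of the SULT1A family add sulfate to drugs, steroids and phenols.

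RefSeq promoters (GRCh38.p14, from 250 bases before to 50 after the first listed start of a gene) are shown for some of the groups. Most of each window lies before the start, so it compares where genes begin and not the bases that the shared probe sets read. ATM, a DNA damage kinase, and NPAT, a coactivator of histone gene transcription, start back to back on chromosome 11. Their windows, chr11:108222817-108223116 on the plus strand and chr11:108222589-108222888 on the minus strand, have 72 bases in common, which are in capitals.
ATM: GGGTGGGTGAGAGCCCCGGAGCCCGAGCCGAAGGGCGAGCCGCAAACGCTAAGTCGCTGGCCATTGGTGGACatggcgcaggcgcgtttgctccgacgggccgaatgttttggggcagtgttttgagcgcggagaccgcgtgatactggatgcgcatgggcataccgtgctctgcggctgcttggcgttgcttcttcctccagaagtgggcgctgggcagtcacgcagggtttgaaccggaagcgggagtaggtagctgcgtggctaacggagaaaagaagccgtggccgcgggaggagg
NPAT: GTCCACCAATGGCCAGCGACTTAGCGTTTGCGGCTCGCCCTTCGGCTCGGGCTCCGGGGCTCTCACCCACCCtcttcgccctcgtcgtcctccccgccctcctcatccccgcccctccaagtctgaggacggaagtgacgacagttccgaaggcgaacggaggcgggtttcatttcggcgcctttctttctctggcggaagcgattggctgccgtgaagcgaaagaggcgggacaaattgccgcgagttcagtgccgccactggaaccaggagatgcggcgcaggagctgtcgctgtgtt

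UGT1A4 (chr2:233718486-233718785, plus strand) and UGT1A5 (chr2:233712657-233712956, plus strand) show how alike paralogs of 1 locus can be. The windows were 89.7% identical in a global alignment, the highest value among 28 pairs of 8 UGT1A promoters, and the lowest was 43.5%. UGT2B10 (chr4:68815744-68816043, plus strand) and UGT2B11 (chr4:69214699-69214998, minus strand) were 90.1% identical. Capitals mark the bases that the alignment did not match in the other gene of the pair.
UGT1A4: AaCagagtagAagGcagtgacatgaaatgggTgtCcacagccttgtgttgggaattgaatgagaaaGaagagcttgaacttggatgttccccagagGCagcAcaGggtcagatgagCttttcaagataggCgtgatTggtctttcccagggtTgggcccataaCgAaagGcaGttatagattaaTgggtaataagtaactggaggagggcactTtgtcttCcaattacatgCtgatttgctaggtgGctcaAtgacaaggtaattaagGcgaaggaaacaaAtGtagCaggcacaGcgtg
UGT1A5: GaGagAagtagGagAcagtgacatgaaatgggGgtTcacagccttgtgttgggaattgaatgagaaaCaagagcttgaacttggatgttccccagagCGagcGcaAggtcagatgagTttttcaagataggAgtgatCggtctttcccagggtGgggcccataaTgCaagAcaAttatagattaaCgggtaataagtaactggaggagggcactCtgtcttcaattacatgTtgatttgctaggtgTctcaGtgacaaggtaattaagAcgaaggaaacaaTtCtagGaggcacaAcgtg
UGT2B10: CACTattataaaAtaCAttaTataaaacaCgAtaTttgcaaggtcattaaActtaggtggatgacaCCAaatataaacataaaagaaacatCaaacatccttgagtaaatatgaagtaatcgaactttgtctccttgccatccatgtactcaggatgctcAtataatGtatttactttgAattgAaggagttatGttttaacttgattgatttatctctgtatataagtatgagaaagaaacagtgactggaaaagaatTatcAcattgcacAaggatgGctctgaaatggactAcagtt
UGT2B11: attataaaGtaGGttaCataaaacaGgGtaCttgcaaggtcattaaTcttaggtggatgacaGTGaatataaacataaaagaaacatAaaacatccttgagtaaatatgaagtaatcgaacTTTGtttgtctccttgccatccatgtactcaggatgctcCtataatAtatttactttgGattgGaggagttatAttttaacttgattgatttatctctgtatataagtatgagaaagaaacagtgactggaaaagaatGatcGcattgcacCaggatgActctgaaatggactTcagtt

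TATAAA, searched on both strands, occurred at 3 positions in the UGT2B10 window and at 2 in the UGT2B11 window, and in neither of the UGT1A windows shown. The matches began at bases 7, 21 and 72 of the UGT2B10 window and 3 and 68 of the UGT2B11 window. The listed start comes after base 250, so none lay close to it. TATAAA was present in 3264 of the 27305 promoters searched. The windows of SULT1A3 (chr16:30199005-30199304, plus strand) and SULT1A4 (chr16:29459663-29459962, plus strand), copies at separate places of chromosome 16, were 100% identical, so the sequence below stands for both.
SULT1A3: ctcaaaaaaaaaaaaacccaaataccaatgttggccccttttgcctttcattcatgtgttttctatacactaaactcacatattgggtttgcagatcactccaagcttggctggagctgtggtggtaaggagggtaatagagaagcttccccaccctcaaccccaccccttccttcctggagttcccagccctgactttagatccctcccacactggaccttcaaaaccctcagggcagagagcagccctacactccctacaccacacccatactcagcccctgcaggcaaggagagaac

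The groups were placed with the RefSeq gene table. In 39 groups at least a pair of genes overlapped, in 35 the genes were neighbours with no more than 10 other genes between them, in 58 they lay farther apart on 1 chromosome and in 43 on several chromosomes. A further 6 groups could not be placed, and in 2 the symbols are now names of the same gene. The groups had 1 to 50 probe sets with a median of 3, and 54 had only 1. Where 2 or more promoters were at hand, in 105 groups, 20 held a pair at least 90% identical, and in 76 the best pair was under 60%. The identity of 2 genes in the window before the start therefore differed widely among groups that all share probe sets.

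Values are log2 intensities. The knockdown array was brighter over the whole table, with a median intensity of 507 against 422 and a median difference of 0.26 (log2), or 1.20-fold. Differences below are knockdown minus control with this 0.26 taken off, called relative, unless they are called deposited. A relative difference between -0.26 and 0 was thus above 0 in deposited values. Of 14 listed hepatocyte markers 5 were in the table (ALB, APOB, APOH, FGG and TF), and all 5 lay at or above the median level of all probe sets, 8.85. Both fibroblast markers in the table lay below it, and no leukocyte, endothelial or neuronal marker of the lists was in the table. No probe set was listed with TUC338 and no group held PCBP2, the gene in which TUC338 lies. The 13 single-symbol probe sets of PCBP2 averaged 10.10 in the knockdown and 10.71 in the control, and 12 of the 13 were lower in deposited values. The table therefore gave no value for the targeted transcript itself.

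The shared probe sets had a median relative difference of -0.052 and an SD of 0.40, beside 0.0036 and 0.40 for probe sets with 1 symbol. In deposited values the median was 0.21, and 71.1% of the shared probe sets were brighter on the knockdown array against 75.2% of those with 1 symbol. At a level of 8.85 or more lay 586 of the shared probe sets. Of these, 3 were at least 2-fold higher, 0.512% (background 0.558% of all probe sets), and 12 were at least 2-fold lower, 2.05% (background 1.12%). At 1.5-fold the counts were 23 higher, 3.92% (background 5.12%), and 50 lower, 8.53% (background 7.31%). A group was represented by the mean over its probe sets, and 101 of the 183 groups had a mean level at or above 8.85. Of these, 48 lay above and 53 below the median probe set, with a median of -0.030, beside 0.037 for all 1442 genes and groups at that level. The median of the groups was 0.0026 after quantile normalization and -0.0028 after lowess, so its direction was not settled. No group was at least 2-fold higher (background 0.277% of genes and groups) and 3 were at least 2-fold lower, 2.97% (background 0.485%). At 1.5-fold, 2 groups were higher, 1.98% (background 2.43%), and 7 were lower, 6.93% (background 3.26%). In deposited values the same counts were 10 higher and 4 lower at 1.5-fold, and 1 higher and 0 lower at 2-fold, so the side with more groups depended on the offset between the arrays. The background of genes and groups includes the groups themselves and is not matched for the number of probe sets. Of the 101 groups 21 had 1 probe set, while 2742 of the 2792 single genes had at least 4. Means over few probe sets scatter more, so these shares are not like for like.

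The 2 groups that were 1.5-fold higher were PIP5K1A/PIPSL and FAM10A5/ST13. The 7 that were lower were TNFSF12/TNFSF12-TNFSF13, the 9 UGT1A symbols, HLA-B/HLA-C/MICA, DTX2/PMS2L11, IGF2/INS-IGF2 and both larger groups of GGT genes. Of the 101 groups, 16 reached 8.85 in the mean of both arrays but lay below it on 1 array, among them both of the higher groups and 3 of the lower ones (TNFSF12/TNFSF12-TNFSF13, the 9 UGT1A symbols and GGT1/GGT2/GGT3P). Such a group passed the level through the array on which it was brighter, so the counts are a description. The probe sets of a group scattered around their mean with a pooled SD of 0.26, against 0.28 for the probe sets of single genes. The means of the 82 groups with at least 4 probe sets had an SD of 0.32, against 0.30 for 2742 single genes. Of the 66 groups with at least 5 probe sets, 10 had every probe set on 1 side of the median probe set. The same share was not computed for single genes, so whether 10 of 66 is unusual was not tested. Every probe set was lower for SLC6A10P/SLC6A8, RABL2A/RABL2B, IGF2/INS-IGF2, SULT1A3/SULT1A4 and the 9 UGT1A symbols. Every probe set was higher for KIF4A/KIF4B, LOC442497/SLC3A2, SNRPN/SNURF, METTL2A/METTL2B and PIP5K1A/PIPSL.

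**Figure D1:**
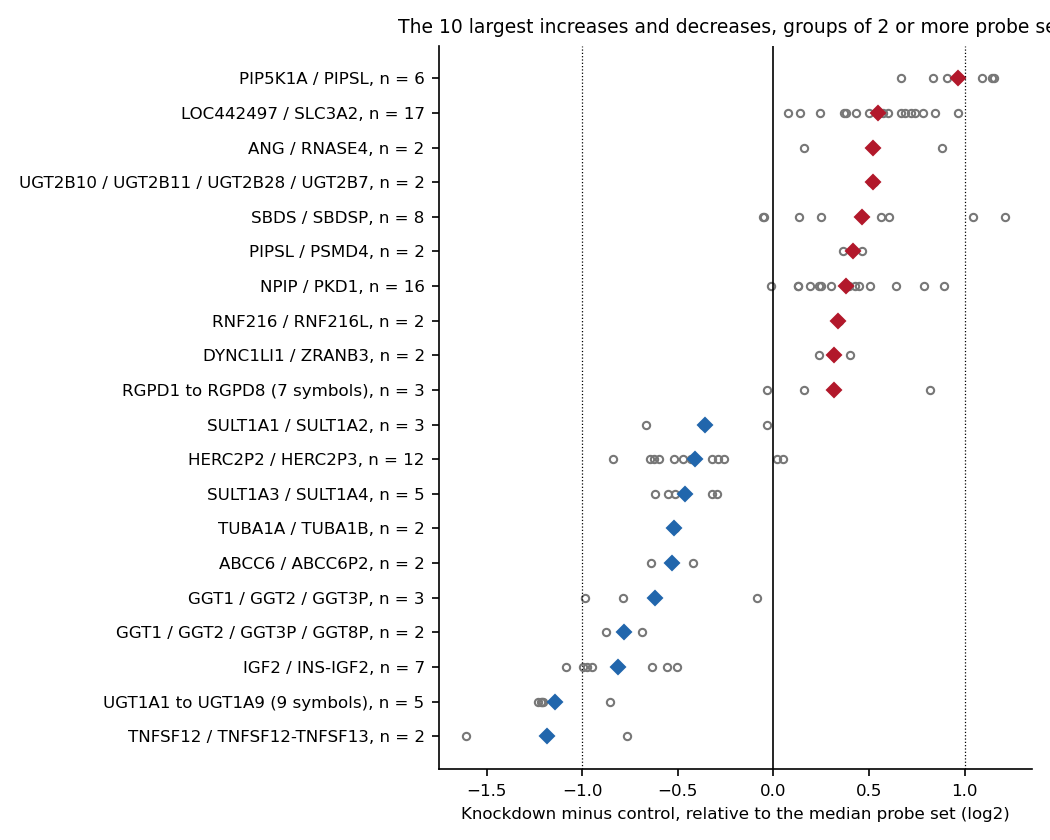
Knockdown minus control relative to the median probe set (log2, horizontal axis) for the 10 groups with the largest increase and the 10 with the largest decrease among groups of 2 or more probe sets at a level of 8.85 or more. Open circles are probe sets, diamonds are group means (red higher, blue lower), n is the number of probe sets and dotted lines mark 2-fold; PIP5K1A/PIPSL lies at 0.97 and TNFSF12/TNFSF12-TNFSF13 at -1.19.

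Among the conjugating enzymes, UGT1A and UGT2B lay on opposite sides of the median probe set. The 5 probe sets listed with all 9 UGT1A symbols, whose genes share their later exons, averaged 8.68 in the knockdown and 9.56 in the control. The relative difference was -1.14 ± 0.16, a 2.21-fold lower level, and -0.88 in deposited values. In the control 4 of them lay between 9.54 and 10.13 and in the knockdown between 8.59 and 9.15, while the dimmest went from 8.58 to 7.98. All 5 were lower on the knockdown array also in deposited values. Another 7 probe sets were listed with UGT1A6 and 1 or 2 further UGT1A genes, in 6 groups below a level of 8.85. All 7 were lower too, with group means from -0.80 for UGT1A3/UGT1A6 to -0.39 for UGT1A5/UGT1A6 and UGT1A10/UGT1A4/UGT1A6. The only probe set of UGT1A6 alone was at 7.84 in the knockdown and 8.43 in the control (relative difference -0.85). Over the 12 shared probe sets of the locus the mean was -0.79 ± 0.35.

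UGT2B7, UGT2B10, UGT2B11 and UGT2B28 form a cluster on chromosome 4 and conjugate steroids, bile acids and drugs. Both probe sets listed with all 4 were at 11.99 and 11.53 in the knockdown and at 11.21 and 10.76 in the control. They agreed closely, at 0.53 and 0.51 relative to the median probe set. Those of UGT2B10, UGT2B11 and UGT2B28 lay at 0.36 and 0.12, and the single probe set of UGT2B10/UGT2B28 at 0.16. All 5 were higher on the knockdown array, as were the 3 probe sets of UGT2B10 alone, with a mean of 0.30 ± 0.14.

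The sulfotransferases were on the lower side. SULT1A3 and SULT1A4 encode the enzyme of catecholamine sulfation, and their 5 shared probe sets averaged 10.25 in the knockdown and 10.46 in the control (relative difference -0.46 ± 0.14). SULT1A1 and SULT1A2, which act on simple phenols, had 3 shared probe sets at -0.36 ± 0.31, and the 2 probe sets of all 4 genes lay at -0.27 ± 0.046. The 8 probe sets of SULT1A1 alone averaged -0.23 ± 0.30, and in deposited values they lay at 0.035, above 0. The SULT1A1/SULT1A2 probe sets ran from -0.66 to -0.035, and their SD was nearly the size of their mean. A pair of other enzyme groups had smaller means. The 6 probe sets of the carboxylesterase group CES1/CES4 averaged 0.17 ± 0.28. For the carbonyl reductase pair DHRS4/DHRS4L2 the mean was 0.16 ± 0.26 over 13 probe sets, while the only probe set of DHRS4 alone lay at -0.61.

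**Figure D2:**
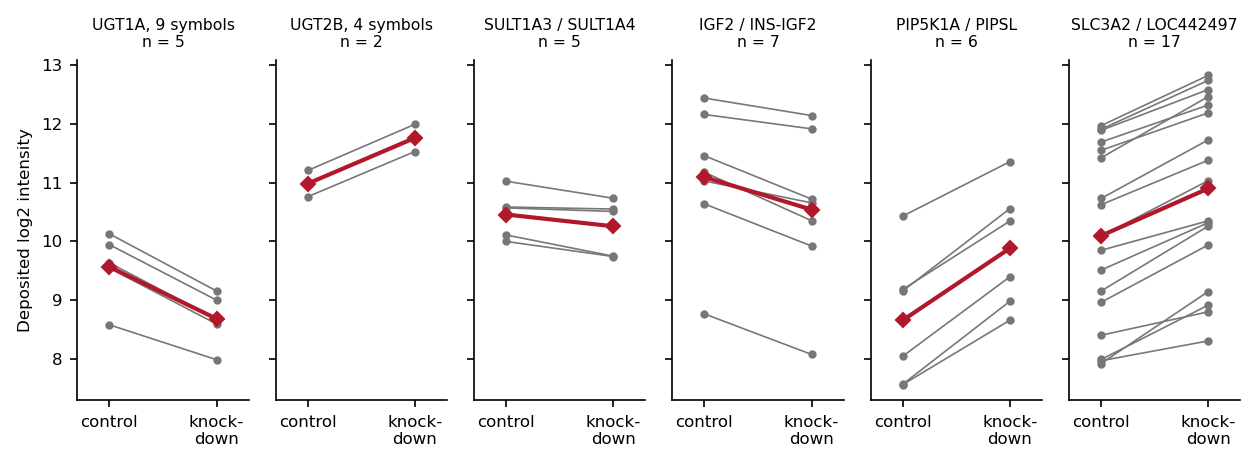
Deposited log2 intensity (vertical axis) on the control and the knockdown array for 6 groups. Grey lines join the values of 1 probe set, red diamonds are group means and n is the number of probe sets; all 5 UGT1A lines slope down and both UGT2B lines slope up, with means of 9.56 to 8.68 and 10.98 to 11.76.

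Groups that encode secreted proteins or ligands lay on both sides of the median probe set. IGF2, a fetal growth factor made by hepatoma cells, is listed with its readthrough transcript INS-IGF2 at 7 probe sets. They ranged from 8.76 to 12.44 in the control and from 8.07 to 12.14 in the knockdown, and all 7 were lower on the knockdown array. The mean was -0.81 ± 0.24, or -0.55 in deposited values, but the brightest probe set differed by -0.56. The 7 values fell into a higher set of 3, from -0.63 to -0.50, and a lower set of 4, from -1.08 to -0.95. The 2 probe sets of IGF2 alone averaged -0.68 ± 0.36.

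TNFSF12 encodes the TNF family ligand TWEAK and TNFSF13 its neighbour APRIL. Both probe sets of TNFSF12 and the readthrough TNFSF12-TNFSF13 were at 9.49 and 8.01 in the knockdown and 9.99 and 9.35 in the control, so they differed by -0.77 and -1.61. The probe set of TNFSF12/TNFSF13 lay at -0.57, and the 4 probe sets of all 3 symbols averaged -0.082 ± 0.32. In deposited values these 4 averaged 0.18. The lower values were therefore clearest at the 3 probe sets that are not in the 3-symbol group, and the mean over all 7 probe sets of the locus was -0.47 ± 0.62.

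ANG, the secreted ribonuclease angiogenin, and RNASE4, another secreted ribonuclease, share exons on chromosome 14. Their 2 shared probe sets were at 9.72 and 11.95 in the knockdown and 8.58 and 11.53 in the control. Both were higher, at 0.88 and 0.16, with a mean of 0.52 ± 0.51. The 3 probe sets of ANG alone lay at 0.18 ± 0.046, and the 3 of RNASE4 alone at -0.077 ± 0.15, above 0 in deposited values.

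Gamma-glutamyltransferase 1, GGT1, starts the breakdown of extracellular glutathione and has several related genes and pseudogenes, most of them on chromosome 22. The 2 probe sets of GGT1/GGT2/GGT3P/GGT8P were at 9.58 and 8.92 in the knockdown and 10.20 and 9.34 in the control (relative difference -0.78 ± 0.14). The 3 of GGT1/GGT2/GGT3P had a mean of -0.62 ± 0.47, with 2 values of -0.99 and -0.79 and 1 of -0.086. All 7 shared GGT probe sets were below the median probe set, with a mean of -0.62, and so were the 2 of GGT1 alone, with -0.70 ± 0.24. ABCC6, an efflux transporter of liver, shares 2 probe sets with its pseudogene ABCC6P2. They lay at -0.53 ± 0.15, while the 28 probe sets of ABCC6 alone averaged -0.21 ± 0.28 and 0.054 in deposited values.

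A pair of transporter groups lay on opposite sides of the median probe set. SLC3A2 encodes the heavy chain that carries amino acid transporters such as SLC7A5 to the membrane. Its 17 probe sets, all listed also with LOC442497 of another chromosome, averaged 10.90 in the knockdown and 10.09 in the control. The relative difference was 0.54 ± 0.25, with values from 0.078 to 0.97, and all 17 were higher. A single probe set of IMAA/SLC7A5P1, pseudogenes of SLC7A5, lay at 0.17. The creatine transporter SLC6A8 and its pseudogene SLC6A10P shared 20 probe sets, and all 20 were lower, from -1.23 to -0.59. Their mean was -0.97 ± 0.18, with 8.33 in the knockdown and 9.04 in the control, so the group lay just under the level of 8.85 and was not in the counts above. The 2 probe sets of SLC6A8 alone differed by -0.88 ± 0.0090 and the 3 of SLC6A10P by -0.76 ± 0.54.

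The highest group held a retrogene. PIPSL is a chimeric retrocopy on chromosome 10 of a readthrough transcript of 2 neighbours on chromosome 1, the phosphoinositide kinase PIP5K1A and the proteasomal ubiquitin receptor PSMD4. The 6 probe sets of PIP5K1A/PIPSL were at 11.36, 10.56, 10.34, 9.40, 8.98 and 8.66 in the knockdown and at 10.43, 9.15, 9.18, 8.04, 7.57 and 7.56 in the control. All 6 were higher, with a mean of 0.97 ± 0.20, or 1.95-fold, and 1.23 in deposited values. The brightest differed least, at 0.67. The 2 probe sets of PIPSL/PSMD4 lay at 0.47 and 0.36 and the 4 of PIPSL alone averaged 0.38 ± 0.48. Neither PIP5K1A nor PSMD4 had a probe set of its own in the table, so which of the copies the higher signal came from was not measured. Another phosphoinositide kinase group, PI4KA with its pseudogenes PI4KAP1 and PI4KAP2, had -0.18 ± 0.18 over 14 probe sets, which is 0.075 in deposited values, while the 38 probe sets of PI4KA alone averaged 0.13 ± 0.25.

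PKD1, the gene of polycystin-1, lies on chromosome 16 among copies of its own first part and of the NPIP family. The 16 probe sets of NPIP/PKD1 averaged 9.81 in the knockdown and 9.17 in the control, and 15 of them were higher, with a mean of 0.38 ± 0.24. The probe sets of NPIP alone (0.36 ± 0.36 over 25) and of PKD1 alone (0.24 ± 0.50 over 18) lay on the same side.

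Cytoskeletal and mitotic genes lay on both sides. The alpha-tubulins TUBA1A and TUBA1B, neighbours on chromosome 12, shared 2 probe sets at 12.35 and 12.24 in the knockdown and 12.61 and 12.50 in the control, both at -0.52. The 5 probe sets of TUBA1A alone also all lay below the median probe set but were scattered, with a mean of -0.91 ± 0.72. The brightest was at 13.60 in the knockdown and 13.36 in the control (relative difference -0.014). Another lay at -0.25, or 0.012 in deposited values, and the rest from -1.52 to -1.32. KIF4A, a motor protein of mitotic chromosomes, shared 18 probe sets with its retrocopy KIF4B. All 18 were higher, with a mean of 0.48 ± 0.23, at 8.46 in the knockdown and 7.73 in the control, below a level of 8.85. The 7 probe sets of KIF4A alone gave 0.49 ± 0.35. Smaller differences were seen for the mitotic kinase AURKA with AURKAPS1 (0.23 ± 0.24 over 4), ARHGAP11A/ARHGAP11B (0.25 ± 0.30 over 5) and the centrosomal CEP170/CEP170L (0.13 ± 0.24 over 11). The dynein chain DYNC1LI1, listed with the DNA translocase ZRANB3, had 0.32 ± 0.12 over 2 probe sets, and the 11 of DYNC1LI1 alone averaged 0.29 ± 0.39.

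In RNA and ribosome biology the clearest spread was within SBDS, a factor of 60S ribosome maturation whose pseudogene SBDSP is on the same chromosome. The 8 shared probe sets averaged 10.03 in the knockdown and 9.30 in the control, and their relative differences ran from -0.057 to 1.21 with a mean of 0.46 ± 0.48. The small nuclear ribonucleoprotein gene SNRPN and SNURF, which share a transcript of the imprinted region of chromosome 15, had 12 probe sets, all higher, with a mean of 0.18 ± 0.13. METTL2A/METTL2B, tRNA methyltransferases on chromosomes 17 and 7, had 8 probe sets, all higher, with 0.23 ± 0.12. HNRNPA1 with HNRPA1L-2 had 3 probe sets at -0.27 ± 0.093, which is -0.0085 in deposited values. The histone H3.3 genes H3F3A/H3F3B lay at -0.058 ± 0.25 over 6 probe sets, and in deposited values and as a median they were above 0. The elongation factor EEF1A1 with EEF1AL7 lay at -0.12 ± 0.17 over 3, again above 0 in deposited values. RNF216/RNF216L, of a ubiquitin ligase, lay at 0.34 at both of its probe sets, and the 24 probe sets of RNF216 alone averaged 0.12 ± 0.29.

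MIR21, the gene of a microRNA abundant in hepatoma cells, lies at the end of TMEM49 (now VMP1), a gene of autophagy. Its mature product (GRCh38.p14, chr17:59841273-59841294, plus strand) is shown with the seed, bases 2 to 8, in capitals to name the microRNA. The arrays read long RNA, so these probe sets do not measure it.
hsa-miR-21-5p: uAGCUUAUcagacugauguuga

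The 2 probe sets of MIR21/TMEM49 were at 13.01 and 11.47 in the knockdown and 12.80 and 11.68 in the control. Their relative differences were -0.048 and -0.47, a mean of -0.26 ± 0.30, which is 0.00064 in deposited values. The 10 probe sets of VMP1 alone averaged 0.30 ± 0.35, and 8 of them were higher.

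The means of the complement and HLA groups of chromosome 6 with several probe sets lay near the median probe set, while single probe sets lay farther off. C4A and C4B encode the 2 forms of complement C4, a plasma protein made in liver, and had 50 shared probe sets, the largest group. They averaged 11.05 in the knockdown and 10.69 in the control (relative difference 0.096 ± 0.27), with 34 higher. Their range was wide, from -0.66 to 1.09, and the highest was at 10.39 in the knockdown and 9.03 in the control. C2/CFB lay at 0.0069 ± 0.24 over 17 probe sets with 10 higher, and at -0.29 at its brightest probe set. HLA-B/MICA lay at -0.030 ± 0.24 over 6 probe sets, above 0 in deposited values and after quantile normalization. The single probe set of HLA-B/HLA-C/MICA was at 9.40 in the knockdown and 10.18 in the control (relative difference -1.04), outside the range of those 6, which ended at -0.39.

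The large families of segmental duplications lay on both sides of the median probe set. NOMO1/NOMO2/NOMO3, subunits of a membrane protein complex of the endoplasmic reticulum, had 37 probe sets at 12.17 in the knockdown and 12.06 in the control. Their relative mean was -0.15 ± 0.13, with 33 below the median probe set, and 0.11 in deposited values. The largest set of NBPF genes, 10 symbols with 30 probe sets, lay at -0.24 ± 0.29, also just above 0 in deposited values, at 0.022, and at -0.75 at its brightest probe set. GTF2H2 and its copies, of the transcription and repair factor TFIIH, had 26 probe sets with a mean of 0.21 ± 0.33, 18 of them higher, but -0.0014 at the brightest. RANBP2, a nuclear pore protein, and its RGPD relatives formed 19 groups with 60 probe sets. Their group means ran from -0.26 to 0.33 and the mean over all 60 was -0.013 ± 0.28, above 0 in deposited values and after quantile normalization and lowess. The 18 probe sets of RANBP2 alone averaged -0.19 ± 0.24. The 3-symbol family of HERC2, a large ubiquitin ligase, and its pseudogenes was lower in the mean of each of its 4 groups. Its 34 shared probe sets averaged -0.36 ± 0.24, or -0.10 in deposited values, with 30 lower than the median probe set. The 12 of HERC2P2/HERC2P3 averaged -0.41 ± 0.27, and the 52 of HERC2 alone -0.37 ± 0.28. Below a level of 8.85, the golgin pair GOLGA8A/GOLGA8B had -0.43 ± 0.29 over 35 probe sets with 33 lower, and RABL2A/RABL2B had -0.35 ± 0.21 over 8.

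**Figure D3:**
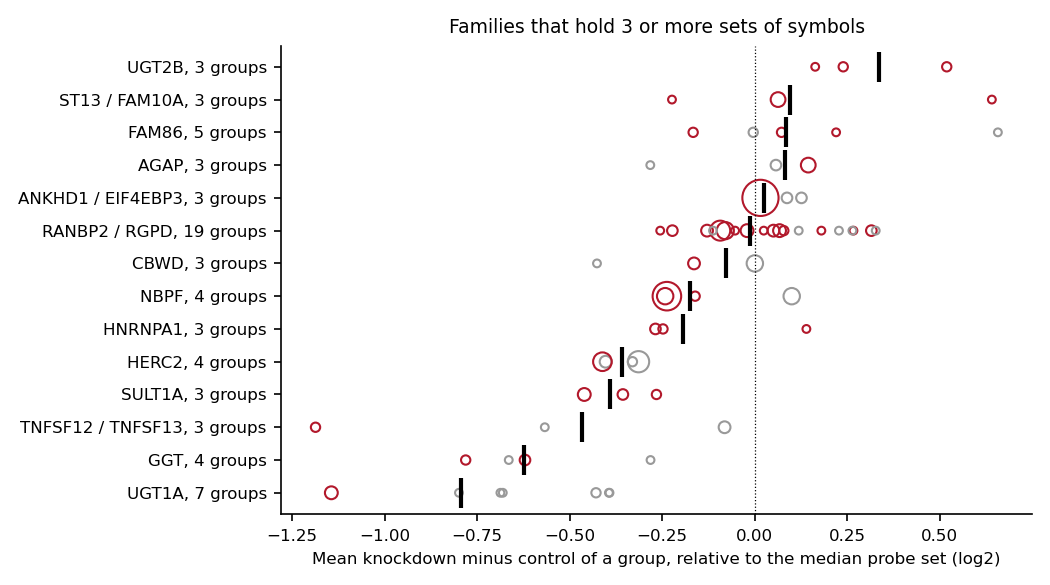
Mean relative difference (log2, horizontal axis) of each group in the 14 families that hold 3 or more sets of symbols. A circle is a group with its area growing with the number of probe sets, red at a level of 8.85 or more and grey below, and black bars are means over all probe sets of a family; UGT1A lies at -0.79 and UGT2B at 0.34, and the 19 groups of RANBP2/RGPD lie on both sides of 0.

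Where partners of a group also had probe sets of their own, the shared probe sets could be set beside them. In ATM/NPAT 30 probe sets listed with both genes averaged 8.41 in the knockdown and 8.54 in the control, and 29 of them were lower, with a mean of -0.40 ± 0.24. The 45 probe sets of ATM alone lay at -0.26 ± 0.26 with 38 lower, and in deposited values at -0.0040. The 29 probe sets of NPAT alone lay at 0.30 ± 0.26 with 26 higher. The shared probe sets were thus closer to those of ATM, and the genes, whose promoter windows overlap as shown above, differed in direction. All 3 means were from levels below 8.85. RBM5 and RBM6, neighbouring RNA-binding splicing regulators, had 3 shared probe sets at 0.18 ± 0.067, near the 0.11 ± 0.32 of RBM5 alone (23 probe sets) and apart from the -0.24 ± 0.35 of RBM6 alone (20 probe sets).

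**Figure D4:**
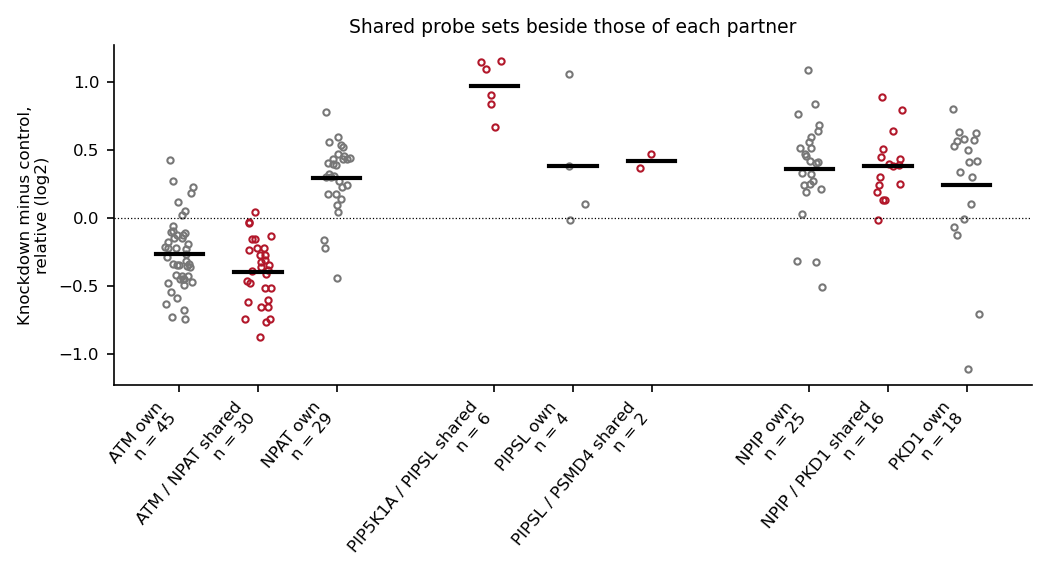
Relative difference (log2, vertical axis) of shared probe sets (red) beside probe sets of each partner alone (grey), for ATM/NPAT, the PIPSL retrogene with its parents and NPIP/PKD1. Black bars are means and n is the number of probe sets; the shared ATM/NPAT mean of -0.40 lies beside -0.26 for ATM and 0.30 for NPAT.

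Such a comparison was possible for 127 groups, while 56 had no gene with a probe set of its own in the table. The shared mean minus the mean over the single-symbol probe sets had a median of 0.070 and a median size of 0.17, with an SD of 0.31 over groups. For the 46 groups with at least 3 probe sets on each side the Pearson r was 0.66 and Spearman's rho 0.56 across groups. These points come from the same 2 arrays, and families add several points each, so the values are a description. In 44 of the 46 the means were less than 0.5 apart. The exceptions were PIP5K1A/PIPSL, given above, and EGFL8/PPT2, whose 3 shared probe sets lay at -0.42 ± 0.41 against 0.31 ± 0.24 for the 13 of PPT2, a lysosomal thioesterase. These 3 averaged 7.77 in the knockdown and 7.93 in the control, below 8.85, and the 13 averaged 9.38 and 8.81. Groups of any level entered this comparison. With fewer shared probe sets, IFRG15/TOR1AIP2, both now names of 1 gene, stood farther apart, at 0.73 ± 0.35 over 2 shared probe sets and -0.26 ± 0.19 over 7 of TOR1AIP2.

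**Figure D5:**
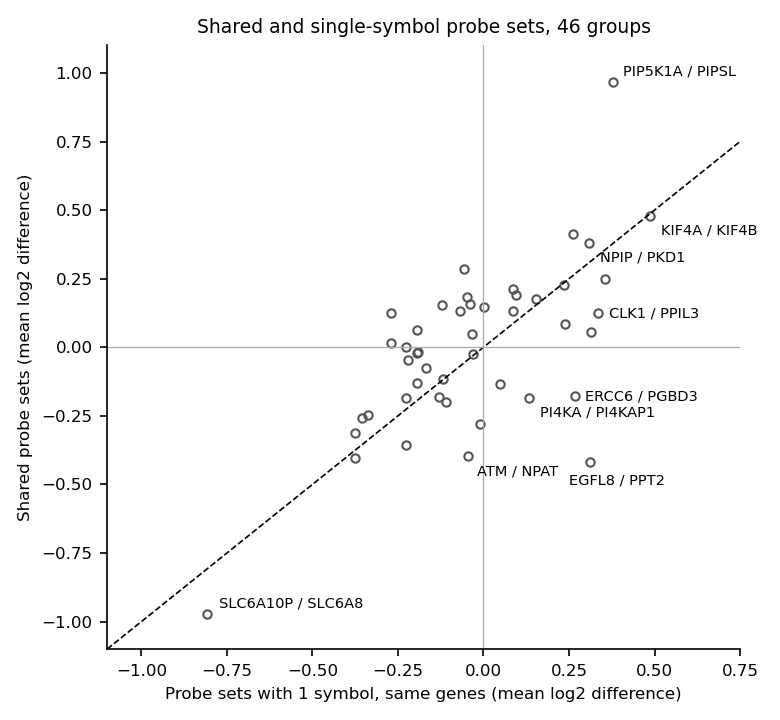
Mean relative difference of the shared probe sets (log2, vertical axis) against that of the single-symbol probe sets of the same genes (log2, horizontal axis) for the 46 groups with at least 3 of each. A circle is a group and the dashed line marks equal values; SLC6A10P/SLC6A8 lies low on both axes, and PIP5K1A/PIPSL and EGFL8/PPT2 lie farthest from the line.

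Groups of 1 probe set had nothing to set against it within the group. FAM10A5/ST13, of a cochaperone of HSP70, was at 9.32 in the knockdown and 8.42 in the control (relative difference 0.64). The other shared probe sets of ST13 lay nearer 0, at 0.063 ± 0.27 over the 7 of all 3 symbols and -0.22 at 1 probe set, and the 4 of ST13 alone at -0.20 ± 0.25. MREG/PECR lay at 0.51, while the 9 probe sets of MREG alone averaged -0.086 ± 0.27. CKAP2/SHB and a set of RANBP2 with 5 RGPD genes both lay near 0.26, at 0.26 and 0.27. DTX2/PMS2L11 was at 9.34 against 9.97, a relative -0.89, and the 4 probe sets of the Notch regulator DTX2 alone were also all lower, at -0.49 ± 0.073. CREB3L2/PPARG lay at -0.48, and the 10 probe sets of the transcription factor CREB3L2 alone averaged 0.15 ± 0.26. PTMA/PTMAP7, of the small nuclear protein prothymosin, lay at -0.43 and the 5 probe sets of PTMA alone at -0.60 ± 0.064. For DTX2 and PTMA the shared and single-symbol values thus lay on the same side of the median probe set, and for ST13, MREG and CREB3L2 they did not. In deposited values those of ST13 (0.90 shared, 0.064 alone) and MREG (0.77 and 0.17) were all above 0. Those of CREB3L2 still differed in side, at -0.22 and 0.41.

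By family name, the 4 groups of glucuronosyltransferases at a level of 8.85 or more counted 3 higher and 1 lower, with a median of 0.20, beside 0.037 for all genes and groups. The 3 higher ones were the UGT2B groups, which overlap in their symbols, and over all 10 groups at any level the median was -0.41. The 3 groups of sulfotransferases were all lower (median -0.36). Of the 4 groups with a readthrough transcript 3 were lower (median -0.54), those of TNFSF12 and IGF2 at least 1.5-fold (background 3.26%). Over all 8 readthrough groups at any level the median was -0.12. The third, DNAJC25/DNAJC25-GNG10/GNG10, lay at -0.26 ± 0.043 and at 0.0021 in deposited values. The fourth, ANKHD1/ANKHD1-EIF4EBP3/EIF4EBP3, had 49 probe sets at 0.015 ± 0.26, with a median and a brightest probe set below 0. The 26 groups of segmental duplication families split into 12 higher and 14 lower (median -0.037, and -0.0041 over all 37). Of the 4 groups with a ribosomal protein or translation factor 3 were lower (median -0.18, and -0.051 over all 6), among them CD68/EIF4A1 at -0.28 ± 0.26 over 11 probe sets and RPL23/SNORA21 at -0.23. The shared probe sets of CD68/EIF4A1 averaged 8.99 over both arrays and lay at -0.020 in deposited values. The 13 of EIF4A1 alone were brighter, at 11.83 in the knockdown and 11.58 in the control. Their mean was -0.0091 ± 0.29, or 0.25 in deposited values, with 8 above and 5 below the median probe set. A lower value was thus not seen for EIF4A1 alone. The 4 HLA and complement groups counted 2 of each (median -0.012). Both solute carrier groups at that level, given above, were higher (median 0.36, and 0.17 over all 3 with SLC6A10P/SLC6A8). Both groups that list a small RNA, MIR21/TMEM49 and RPL23/SNORA21, were lower (median -0.25), but lay at 0.00064 and 0.026 in deposited values. The host genes alone averaged 0.30 over 10 probe sets for VMP1 and -0.087 over 2 for RPL23. Histones, heat shock genes, tubulins and actins, noncoding partners and plasma proteins had 1 group each at that level, all given above. Protocadherins, cytochromes P450, golgins and zinc fingers had groups below it only. Metallothioneins, keratins and the duplicated genes of chromosome 21 had no group.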

How the data were processed

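The authors deposited 1 table of probe set intensities for 2 arrays. Normalization, software and genome build, all not given in the sources used here, are unknown. Deposited values were taken as natural log intensities, because their exponentials fell on a grid of 0.5 (in the knockdown the fullest bin held 1154 of 41367 values, the mean bin 82.7), and were converted to log2. Gene symbols came from the platform annotation supplied with the table. Of the 311 symbols, 251 were current in RefSeq, 52 were updated and 8 kept as listed. Promoter identity replaced the planned protein identity, for which no sequences were used here.

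The mean over the probe sets of a group was used. Counts covered groups with a mean level of at least the median of all probe sets. Quantile normalization, lowess, the median and the brightest probe set were alternatives. At that level, the named groups were the 10 largest differences each way with 2 or more probe sets, the 4 each way with 1, the 5 with the most probe sets and up to 4 of each family by symbol. SLC6A10P/SLC6A8, KIF4A/KIF4B, ATM/NPAT and all other groups were named after their values were seen. Members and families were chosen with earlier results of these data known. With 1 array per condition no test was made. The array number limits the precision. The script was tested on simulated data. Python 3.11.15, pandas 2.3.3, statsmodels 0.14.6 and Biopython 1.88 were used.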

Additional observations from a re-analysis of the deposited data

How the results depend on the processing

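With 1 array per condition, culture-to-culture variation was not measured, and signal over background was not given for single probe sets. No paired analysis was possible because each condition has 1 array. The 45 named groups were recomputed in 5 other ways, which gave 190 values that could differ, since groups of 1 or 2 probe sets fix the other 35. In 157 of the 190 the difference moved by less than the SD over probe sets, or the pooled SD of 0.26 for groups of 1. The 190 include the deposited values, which shift every group by the same offset, so their outcome (22 moved, 23 not) depends only on the SD. For the 11 groups of 1 probe set this outcome was fixed in advance, since the offset of 0.2597 is below the pooled SD of 0.2632. None of the 9 past 1.5-fold changed direction, but they were chosen for large differences. The offset of 0.26 could not turn them, and groups of 1 probe set have no other median or brightest value. Some other named groups did change direction. NOMO1/NOMO2/NOMO3 went from -0.15 to 0.11 in deposited values. The group of RGPD1 to RGPD6 with RGPD8 went from 0.31 to -0.034 at its brightest probe set. The median over shared probe sets turned from -0.052 to 0.21 in deposited values, because the offset of 0.26 was kept. Counts of groups moved as follows. Deposited values gave 1 higher and 0 lower at 2-fold and 10 higher and 4 lower at 1.5-fold. Without a level minimum there were 5 lower at 2-fold, and 4 higher and 15 lower at 1.5-fold. A minimum at the 75th percentile left 1 lower at 2-fold, and 0 higher and 2 lower at 1.5-fold. With the brightest probe set 4 were higher and 14 lower at 1.5-fold, and with at least 2 probe sets 1 was higher. The fewer or additional groups tested enter these counts; otherwise the cause was not tested. Quantile normalization and lowess moved none of the counts by over 1.5 times.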

Other observations

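Immunoglobulin kappa sequences, products of B cells, gave the shared probe set with the lowest relative difference. IGKC/IGKV1-5 was at 7.54 in knockdown cells and at 8.90 in control cells, so it lay at -1.62. The probe set of IGKV3-20/IGKV3D-11/IGKV3D-15 lay at -1.04, and a further one that also lists IGK@ at -0.099, above 0 in deposited values. The 4 probe sets of IGKC alone averaged 7.95 in the knockdown and 8.78 in the control, and the 4 of IGKV1-5 alone 7.85 and 9.01. All 8 lay below the median probe set in their difference, and the shared probe sets all had levels below 8.85. None of the 5 listed leukocyte markers was in the table, so the presence of such cells was not tested.

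Other groups below a level of 8.85 with at least 7 probe sets that lay mostly on 1 side included TYW1/TYW1B, of wybutosine synthesis in tRNA, at 0.41 ± 0.34 with 13 of 14 higher, CXorf40A/CXorf40B at 0.36 ± 0.32 with 6 of 7 higher and the ribosome biogenesis gene PPAN with P2RY11 and their readthrough at 0.29 ± 0.25 with 6 of 7 higher. TAF1/TAF1L, of the TFIID complex, lay at -0.20 ± 0.20 with 20 of 23 lower, and at 0.061 in deposited values. The larger set of TBC1D3 genes, a family of segmental duplications on chromosome 17, had -0.46 ± 0.27 with 8 of 9 lower.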
